A study of Homo sapiens with 31 samples.

Results

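The comparison described here set Caco-2 cells exposed to TiO2 nanomaterial in a gut-on-chip against cells in the same chip that received the TiO2-control medium. Its members were chosen by their labels alone, as every chip array of these 2 groups. They are 8 of the 31 arrays of the series, 4 for TiO2 and 4 for control, and all 22395 measured genes were examined. Caco-2 is a line from a human colorectal adenocarcinoma that forms a polarised, enterocyte-like layer in long culture. The exposed chips received 100 µg/mL TiO2 in suspension through the upper channel for 6 h, and the control chips received dispersion medium without metal for the same time. All chips had been cultured for 21 days, from day 1 under a flow of 100 µL/h that gave a shear stress of about 0.002 dyne/cm2 at the cells. The flow was stopped during the 6 h exposure, once the upper chamber had filled in about 42 min. The cells were a single line at passages 29 to 45, and the labels do not say whether the 4 replicates came from separate chips, cultures or days. The p-values and standard errors therefore measure a spread between arrays that may be partly technical. That spread was estimated jointly over all 16 chip arrays of the series, those of the ZnO groups included.

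TiO2 is a poorly soluble oxide that reaches gut cells mainly as particles. ZnO, the other nanomaterial of the study, dissolves far more readily, and the zinc ions it releases are sensed by the transcription factor MTF1, which switches on the metallothionein genes. Epithelial cells that are stressed by particles, metals or oxidants can raise antioxidant enzymes under NRF2, immediate early transcription factors, chaperones, and amino acid genes of the integrated stress response, and can alter inflammatory and lipid genes. The comparison asks which of these, or any other gene, differed after TiO2 in the perfused culture.

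The cells had the defining features of their label. Of 10 measured markers of Caco-2 and intestinal epithelium, the strongest were the adhesion proteins CDH1, with a mean log2 value of 12.12 in TiO2 arrays and 12.16 in control arrays, and CDH17, with 12.03 in TiO2 arrays and 11.94 in control arrays. No marker of this list had an unadjusted p below 0.05 (limma), and their differences, TiO2 minus control, ran from -0.06 to 0.23 log2. Of 20 measured markers of immune, endothelial, stromal and red cells, the leukocyte gene PTPRC stood at 1.62 in TiO2 arrays and 1.59 in control arrays, below the chip array median of 3.31. Only 8 of the 20 lay below that median in both groups, and the highest group mean in the list was 11.43. Of these 20, 4 (20%) had an unadjusted p below 0.05 with TiO2 higher, against 3.42% of all genes, and 0 with TiO2 lower. MS4A1 and COL1A2 among the 4 lay below that median in both groups. Without the arrays labelled replicate 4, which are described next, 3 of 20 (15%) were higher, against 5.53% of all genes.

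The arrays labelled replicate 4 stood apart in both groups, and this bears on every result that follows. Over the 11198 brighter genes (those with a mean at or above the median gene), TiO2 replicates 1 to 3 lay at -14.6, -11.8 and -10.0 on the second principal component, whereas control replicates 1 to 3 lay at 13.2, 24.4 and 11.8. TiO2 replicate 4 lay at 2.70 and control replicate 4 at -15.7, so each fell outside its own group in the direction of the other. On the first component TiO2 replicate 4 lay at -28.4 and control replicate 4 at -17.9, both below the other 6 arrays, which ran from -6.90 to 16.04. TiO2 replicate 4 had a mean correlation across these genes of 0.960 with TiO2 replicates 1 to 3 and of 0.966 with control replicates 1 to 3. For control replicate 4 the mean correlation was 0.968 with TiO2 replicates 1 to 3 and 0.964 with control replicates 1 to 3. The gene differences of the pair numbered 4 correlated at -0.24 with the mean of the other 3 pairs, against 0.24, 0.29 and 0.26 for pairs 1, 2 and 3. For pairs 1, 2 and 3 that mean included the pair numbered 4, so the references differ. Arrays were paired here by replicate number only, and the labels do not say what a number shares. The files do not show whether these 2 labels were exchanged before deposit, which would change the meaning of every value taken over all 8 arrays, and this was not tested. The labels were kept as given. The lists described, and most genes named with them, are given with all 8 arrays and again with the 3 TiO2 and 3 control arrays that remain without both replicates 4.

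**Figure D1:**
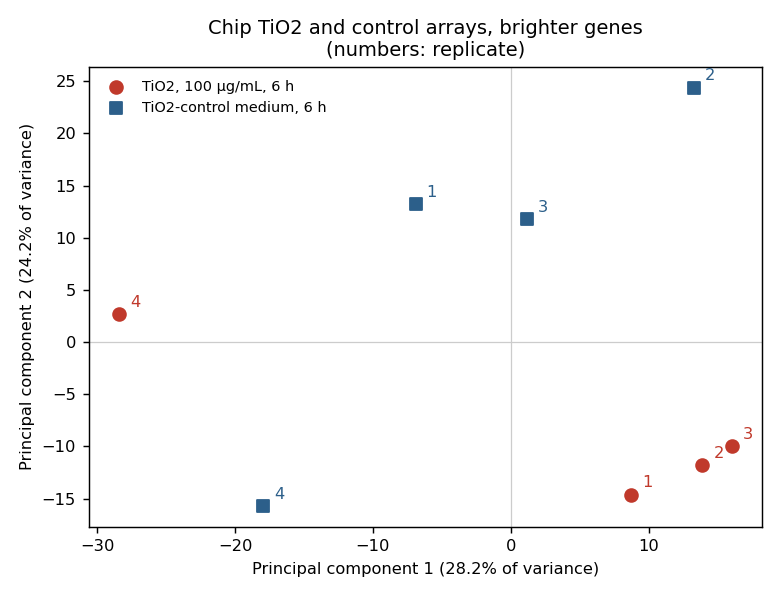
The 8 chip arrays on the first (28.2% of variance) and second (24.2%) principal components of the 11198 brighter genes, with TiO2 arrays as red circles and control arrays as blue squares, numbered by replicate. TiO2 replicates 1 to 3 lie at the bottom and control replicates 1 to 3 at the top, while TiO2 replicate 4 lies at 2.70 and control replicate 4 at -15.7 on the vertical axis.

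No gene passed the test between TiO2 and control. In limma's moderated test on the chip arrays, with Benjamini-Hochberg adjustment over 22395 genes, 0 genes (0%) had an adjusted p below 0.05, and the smallest adjusted p was 0.109. Without both replicates 4 the count was again 0 (0%), with a smallest adjusted p of 0.0837. At an unadjusted p below 0.05 there were 1279 genes (5.71%), of which 765 (3.42%) had TiO2 higher and 514 (2.3%) had TiO2 lower. Among 3 and 3 arrays there were 2062 such genes (9.21%), 1239 (5.53%) with TiO2 higher and 823 (3.67%) with TiO2 lower. In 450 genes (2.01%) every TiO2 array lay above every control array, and in 298 (1.33%) every TiO2 array lay below. Among 3 and 3 arrays those counts were 2364 (10.6%) above and 1622 (7.24%) below.

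The differences were small for most genes, and the intervals state how large a change the arrays leave possible. With all arrays 5% of genes lay below -0.33 and 5% above 0.37 log2, and among 3 and 3 arrays these limits were -0.41 and 0.48. For 21193 genes (94.6%) the whole 95% interval of the difference lay within 2-fold in either direction, and this held for 20038 genes (89.5%) without both replicates 4. Differences beyond 2-fold were found in 66 genes, 25 with TiO2 higher and 41 lower, and in 190 genes without both replicates 4, 48 higher and 142 lower. The balance of all genes leaned slightly upward, with 12218 (54.6%) above 0 and 10177 (45.4%) below. In the 3 and 3 arrays, 57.1% lay above 0 and 42.9% below. In the pair numbered 4 the lean was the other way, with 46.7% of genes above 0 and 53.2% below.

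**Figure D2:**
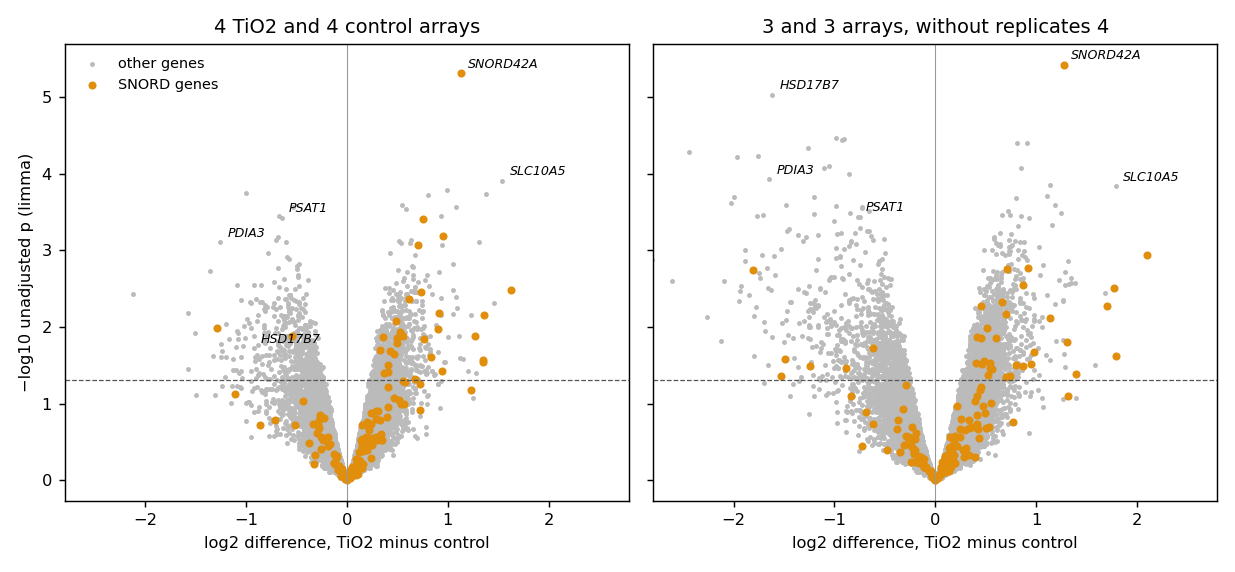
Log2 difference, TiO2 minus control (horizontal), against −log10 of limma's unadjusted p (vertical) for 22395 genes, with all 8 chip arrays on the left and 3 and 3 arrays on the right. The dashed line is an unadjusted p of 0.05 and orange points are C/D box small nucleolar RNA genes. SNORD42A has the smallest p in both panels, and no gene in either panel has an adjusted p below 0.05.

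The gene with the smallest p was SNORD42A, a C/D box small nucleolar RNA of the class that guides ribose methylation of ribosomal RNA. Its log2 values were 10.87, 10.59, 10.34 and 10.61 in TiO2 replicates 1 to 4, against 9.15, 9.47, 9.33 and 9.91 in control replicates 1 to 4. All 4 TiO2 arrays lay above all 4 control arrays, replicate 4 included. The difference was 1.13 ± 0.17 log2 (SE, n = 4 each, 95% interval 0.769 to 1.496), with a limma adjusted p of 0.109. Without both replicates 4 it was 1.28 log2 with a limma adjusted p of 0.0837. Leaving out control replicate 4 alone brought its limma adjusted p to 0.0177, at 1.28 log2. With all 8 arrays kept it was 0.0139 with an intensity trend in limma, 0.0332 with array weights and 0.0487 over the 11198 brighter genes, so whether the gene passes depends on the model and the gene filter as well as on that array.

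The next genes by p were less precise. SLC10A5, a member of the sodium and bile acid cotransporter family, had log2 values of 5.16, 6.44, 6.25 and 5.74 in TiO2 arrays, against 3.64, 3.92, 4.92 and 4.95 in control arrays. Its groups did not overlap, yet the lowest TiO2 array and the highest control array were close. The difference was 1.54 ± 0.31 log2 (SE, n = 4 each), with a limma adjusted p of 0.616 with all arrays and 0.178 without both replicates 4. ZFP14, a zinc finger protein, was 4.30, 4.64, 4.58 and 4.73 in TiO2 arrays and 3.87, 3.47, 3.78 and 3.16 in control arrays, again without overlap and with replicates 4 the farthest apart. Its difference was 0.99 ± 0.21 log2 (SE, n = 4 each) with all arrays and 0.80 without both replicates 4. The other members of the first 5 were MIR4487, a microRNA gene with a difference of 1.38 log2, and RN5S197, annotated as a 5S ribosomal RNA copy, with -0.998. They differed by 1.31 and -0.83 without both replicates 4. Both lay below the chip array median of 3.31 in each group, where signal over background limits the precision.

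CD14, the co-receptor for bacterial lipopolysaccharide and a monocyte marker, was another of the 4 markers of non-epithelial cells with an unadjusted p below 0.05. It had log2 values of 6.73, 6.10, 6.51 and 6.47 in TiO2 arrays, against 5.09, 5.47, 5.99 and 5.48 in control arrays. The groups did not overlap and the pair numbered 4 differed by about as much as the rest. The difference was 0.95 ± 0.23 log2 (SE, n = 4 each) with a limma adjusted p of 0.738, and 0.93 without both replicates 4 with a limma adjusted p of 0.374. Among other markers of the myeloid lineage, CD68 differed by 0.02 log2, LYZ by -0.06 and ITGAM by -0.14, and without both replicates 4 by 0.02, 0.03 and -0.23. TICAM1, the adaptor that links Toll-like receptors to interferon induction, was picked out after its values were seen. It had 6.27, 5.83, 6.01 and 5.34 in TiO2 arrays, against 4.97, 5.19, 4.52 and 5.01 in control arrays, with TiO2 replicate 4 the lowest of its group but above every control array. Its difference was 0.94 ± 0.21 log2 (SE, n = 4 each), or 1.14 without both replicates 4, with limma adjusted p of 0.616 and 0.178.

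**Figure D3:**
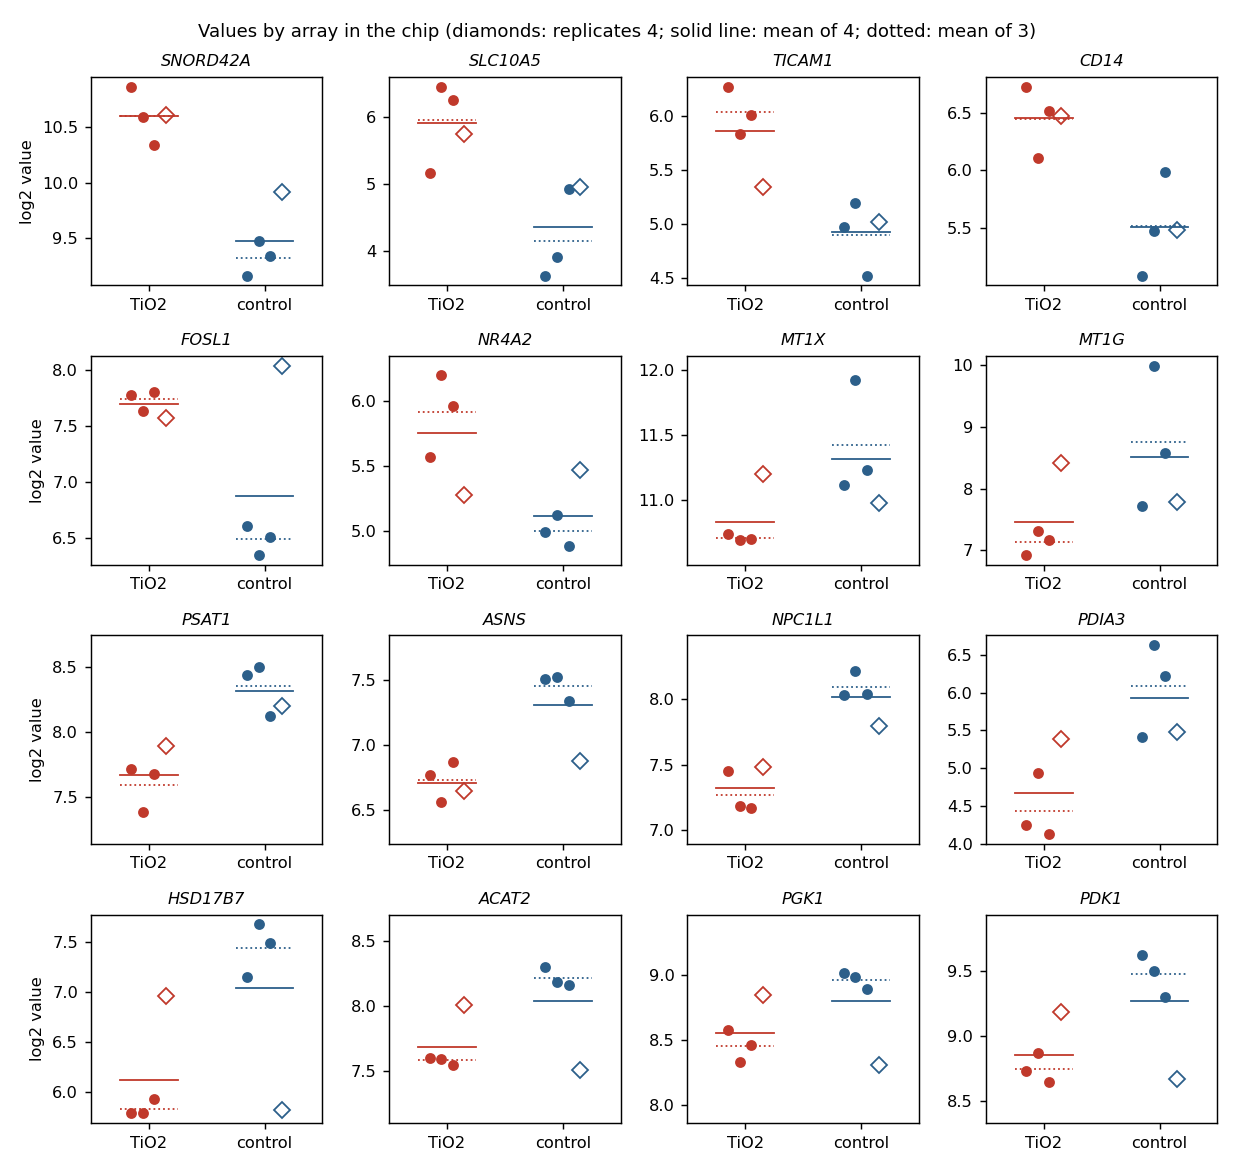
Deposited log2 values of 16 genes in each chip array, TiO2 on the left of each panel in red and control on the right in blue, with replicates 4 as open diamonds. Solid lines are means of 4 arrays and dotted lines are means of 3 without replicate 4. SNORD42A and CD14 keep their groups apart with replicates 4, whereas in HSD17B7, ACAT2, PGK1 and PDK1 the order of the diamonds is reversed.

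Among amino acid genes of the integrated stress response, which the transcription factor ATF4 switches on when protein synthesis is throttled, the members with the smallest p lay lower in TiO2 arrays. PSAT1, an enzyme of serine synthesis, had log2 values of 7.71, 7.39, 7.68 and 7.89 in TiO2 arrays, against 8.44, 8.50, 8.12 and 8.20 in control arrays. The groups did not overlap, and the difference was -0.65 ± 0.15 log2 (SE, n = 4 each), with a limma adjusted p of 0.616. ASNS, which makes asparagine, had 6.77, 6.57, 6.87 and 6.65 in TiO2 arrays and 7.51, 7.52, 7.34 and 6.88 in control arrays. All TiO2 arrays lay below all control arrays, with control replicate 4 just above the highest TiO2 array. The ASNS difference was -0.60 ± 0.15 log2 (SE, n = 4 each, limma adjusted p 0.797), and without both replicates 4 PSAT1 was at -0.76 and ASNS at -0.72, each with a limma adjusted p of 0.203. MTHFD2, a mitochondrial folate enzyme, differed by -0.33 log2 and SLC7A11, the cystine importer, by -0.37, both with overlapping groups. SLC7A11 was at -0.66 and MTHFD2 at -0.46 without both replicates 4, with all 3 TiO2 arrays below all 3 control arrays in each, and limma adjusted p of 0.386 and 0.485. The pair numbered 4 had them at 0.51 and 0.06.

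Of the 24 measured members of the integrated stress response list, 0 passed and 16 lay below 0, against 45.4% of all genes below 0. At an unadjusted p below 0.05, 0 of 24 were higher and 3 (12.5%) were lower, against 2.3% of all genes. Among 3 and 3 arrays, 17 lay below 0 and 6 (25%) were lower at an unadjusted p below 0.05, against 3.67% of all genes. The median difference was -0.12 log2 with all arrays, -0.24 without both replicates 4 and 0.02 in the pair numbered 4. Of the regulators of the pathway, ATF4 differed by 0.02 log2 and ATF3 by 0.00, and without both replicates 4 by 0.02 and -0.23.

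The ASNS promoter is shown because the element through which ATF4 acts on this gene was found in it. The window runs from 250 bases before to 50 after the start of transcription (RefSeq, GRCh38.p14, chr7:97872359-97872658, minus strand), and the capitals mark a match of the C/EBP-ATF letters TGATGNAA, searched on both strands.
ASNS: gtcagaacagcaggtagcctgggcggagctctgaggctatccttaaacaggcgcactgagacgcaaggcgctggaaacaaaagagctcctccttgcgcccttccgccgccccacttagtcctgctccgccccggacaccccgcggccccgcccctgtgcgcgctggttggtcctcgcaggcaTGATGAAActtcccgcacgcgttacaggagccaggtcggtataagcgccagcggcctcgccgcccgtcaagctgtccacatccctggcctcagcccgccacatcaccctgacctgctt
These letters were in 3.67% of 27305 RefSeq promoters of this length and in 5 of the 21 promoters matched for the list. The windows of PSAT1 and MTHFD2, also searched, held no match. A match describes the sequence and is not evidence that the site was bound.

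Chaperone genes outside that pathway gave a mixed picture. PDIA3, a disulfide isomerase of the endoplasmic reticulum, had log2 values of 4.25, 4.94, 4.12 and 5.39 in TiO2 arrays, against 5.41, 6.63, 6.22 and 5.48 in control arrays. Its groups did not overlap, but the pair numbered 4 and control replicate 1 lay close together. The difference was -1.26 ± 0.31 log2 (SE, n = 4 each) with a limma adjusted p of 0.738, and -1.65 without both replicates 4 with 0.165. The 20 measured genes of the unfolded protein response had a median difference of 0.01 log2, with 11 above and 9 below 0, and PDIA3 was the only one of them (5%) with an unadjusted p below 0.05, against 2.3% of all genes with TiO2 lower. The median of that list turned to -0.05 log2 without both replicates 4, with 6 above and 14 below 0, and 1 of 20 again was lower, against 3.67% of all genes. Of 18 measured heat shock proteins and chaperones, 7 lay above and 11 below 0 (median -0.06 log2), or 6 above and 12 below without both replicates 4 (median -0.05). The 1 member (5.56%) with an unadjusted p below 0.05, against 2.3% of all genes with TiO2 lower, was HSPA4L, a relative of HSP110. It differed by -0.47 ± 0.17 log2 (SE, n = 4 each). Without both replicates 4 it was again the 1 such member (5.56%), against 3.67% of all genes. HSPA4L was 8.13, 8.27, 8.62 and 8.73 in TiO2 arrays, against 9.04, 8.999, 8.98 and 8.63 in control arrays. TiO2 replicates 1 to 3 lay below every control array, though TiO2 replicate 3 only just below control replicate 4. TiO2 replicate 4 lay inside the control range. HSPA4L differed by -0.66 log2 without both replicates 4, with a limma adjusted p of 0.324.

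The metallothioneins, proteins whose many cysteines hold zinc and copper ions, all lay on the lower side in TiO2 arrays. MT1X had log2 values of 10.74, 10.69, 10.70 and 11.20 in TiO2 arrays, against 11.12, 11.92, 11.23 and 10.98 in control arrays. TiO2 replicates 1 to 3 lay below every control array, and TiO2 replicate 4 lay inside the control range. The MT1X difference was -0.48 ± 0.21 log2 (SE, n = 4 each) with a limma adjusted p of 0.845, and -0.71 without both replicates 4 with 0.374. MT1G had 6.92, 7.31, 7.17 and 8.41 in TiO2 arrays and 7.72, 9.98, 8.57 and 7.78 in control arrays. Control replicate 2 was the highest array for MT1G, MT1H and MT1X. The MT1G difference was -1.06 ± 0.53 log2 (SE, n = 4 each) with all arrays, and MT1H differed by -1.15 ± 0.66 and MT2A by -0.26 ± 0.18. These were -1.62, -1.80 and -0.43 log2 without both replicates 4, with all 3 TiO2 arrays below all 3 control arrays and limma adjusted p of 0.421, 0.478 and 0.496. Without control replicate 2 alone, the differences were -0.57 log2 for MT1G, -0.49 for MT1H, -0.27 for MT1X and -0.21 for MT2A.

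Of the 10 metallothioneins listed, 9 were measured, and all 9 lay below 0, against 45.4% of all genes, with 0 that passed. The median difference was -0.48 log2 with all arrays and -0.75 without both replicates 4, where again 9 of 9 lay below 0. Of the 9, 1 (11.1%) was lower at an unadjusted p below 0.05 with all arrays, against 2.3% of all genes. Without both replicates 4, 4 (44.4%) were, against 3.67% of all genes with TiO2 lower. Taken by array against the control mean, the list median was -0.57, -0.68, -0.63 and -0.02 in TiO2 replicates 1 to 4. In control replicates 1 to 4 it was -0.58, 1.35, 0.06 and -0.58. Control replicates 1 and 4 thus lay near TiO2 replicates 1 to 3, and control replicate 2 stood apart. In the pair numbered 4 all 9 metallothioneins lay above 0 with a median of 0.64, against 46.7% of all genes. These genes are close paralogs whose probes may read more than one member, so the 9 are not independent, and MT1B and MT1M lay below the array median in both groups. Of 18 zinc transporters and regulators, 16 lay above 0, against 54.6% of all genes, and 12 did so without both replicates 4, against 57.1%. Of the 18, 3 (16.7%) were higher at an unadjusted p below 0.05, against 3.42% of all genes, and 1 (5.56%) without both replicates 4, against 5.53%. The transcription factor MTF1 itself differed by 0.35 ± 0.13 log2 (SE, n = 4 each), with 7.65, 7.80, 7.83 and 7.63 in TiO2 arrays, against 7.31, 7.47, 7.21 and 7.53 in control arrays, and a limma adjusted p of 0.797. MTF1 differed by 0.43 log2 without both replicates 4, with 0.406.

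The MT1X promoter is shown because it carries the metal response elements that MTF1 binds. The window is 250 bases before to 50 after the start (RefSeq, GRCh38.p14, chr16:56682220-56682519, plus strand), and the capitals mark 4 matches of TGCNCNC on either strand.
MT1X: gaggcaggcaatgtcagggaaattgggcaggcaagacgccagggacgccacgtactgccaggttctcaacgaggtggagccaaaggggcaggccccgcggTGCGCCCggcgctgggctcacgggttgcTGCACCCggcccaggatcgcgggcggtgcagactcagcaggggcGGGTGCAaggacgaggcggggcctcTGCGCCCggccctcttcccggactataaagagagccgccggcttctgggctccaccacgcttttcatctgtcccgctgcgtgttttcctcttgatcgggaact
The letters are short and were in 55.2% of the 27305 promoters, and in all 5 metallothionein promoters that the RefSeq table held.

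**Figure D4:**
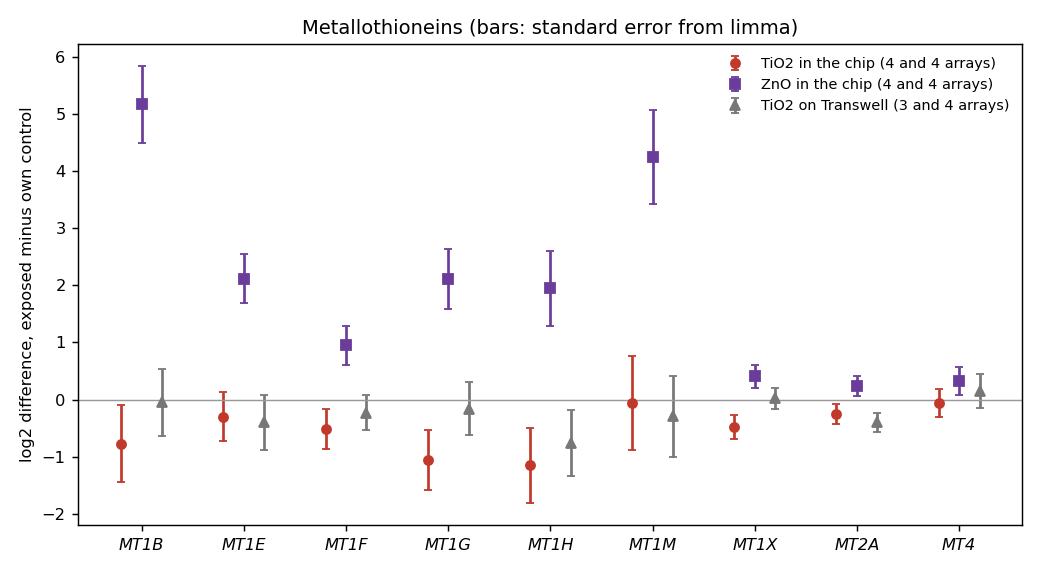
Log2 difference of 9 metallothioneins, exposed minus their own control, for TiO2 in the chip (red circles), ZnO in the chip (purple squares) and TiO2 on Transwell inserts (grey triangles), with limma standard errors as bars. All 9 TiO2 chip values lie below 0 and all 9 ZnO chip values lie above 0, led by MT1B at 5.17 after ZnO.

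Of 24 measured antioxidant genes under NRF2, 0 passed the test, 8 lay above 0 and 16 below with all arrays and also without both replicates 4, with a median of -0.04 log2 with all arrays and -0.12 without both replicates 4. The oxidant-responsive haem oxygenase HMOX1 differed by 0.35 log2, NQO1 by -0.14 and GCLM by 0.00, and without both replicates 4 by 0.27, -0.20 and -0.10. Those at an unadjusted p below 0.05 were all lower in TiO2 arrays, 3 of 24 (12.5%) against 2.3% of all genes, or 6 (25%) against 3.67% without both replicates 4. The 6 include SLC7A11, which is also counted in the integrated stress response list, and 7 of the 24 members belong to other lists too. GSR, which regenerates glutathione, was 9.98, 9.81, 9.85 and 10.04 in TiO2 arrays and 10.09, 10.20, 10.19 and 10.17 in control arrays, a difference of -0.24 ± 0.10 log2 (SE, n = 4 each). TALDO1, an enzyme of the pentose phosphate pathway, differed by -0.29 ± 0.11 log2 (SE, n = 4 each). In GSR and TALDO1 all 4 TiO2 arrays lay below all 4 control arrays, though by a narrow margin in GSR, and without both replicates 4 they differed by -0.27 and -0.34 log2. Of 16 measured enzymes that remove peroxide and superoxide, none had an unadjusted p below 0.05 with or without replicates 4, with medians of -0.04 log2 with all arrays and -0.02 without both replicates 4.

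Cholesterol genes lay lower in TiO2 replicates 1 to 3 than in control replicates 1 to 3, and higher in the pair numbered 4. HSD17B7, a reductase late in cholesterol synthesis, had log2 values of 5.78, 5.78, 5.93 and 6.96 in TiO2 arrays, against 7.16, 7.68, 7.49 and 5.82 in control arrays. Replicates 1 to 3 were well apart, and in replicates 4 the order was reversed. The difference was -0.93 ± 0.36 log2 (SE, n = 4 each) with a limma adjusted p of 0.799, and -1.61 without both replicates 4 with 0.104, while the pair numbered 4 differed by 1.14. Its near-identical copy HSD17B7P2, looked at after the values were seen, differed by -0.71 log2 with all arrays and -1.11 without both replicates 4, and the probes may not tell the copies apart. ACAT2, which makes acetoacetyl-CoA at the start of the pathway, was 7.61, 7.60, 7.55 and 8.01 in TiO2 arrays and 8.30, 8.19, 8.17 and 7.51 in control arrays. ACAT2 differed by -0.35 ± 0.17 log2 (SE, n = 4 each) with all arrays and by -0.63 without both replicates 4, with the order again reversed in replicates 4.

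Of 20 measured cholesterol and SREBP genes, 0 passed and 16 lay below 0, against 45.4% of all genes, with a median of -0.20 log2. Of these 20, 3 (15%) were lower at an unadjusted p below 0.05, against 2.3% of all genes. Among 3 and 3 arrays, 19 of 20 lay below 0, against 42.9% of all genes, with a median of -0.25, and 6 (30.0%) had an unadjusted p below 0.05 with TiO2 lower, against 3.67%. In the pair numbered 4, 14 of 20 lay above 0 and the median was 0.34. SQLE, the squalene epoxidase, differed by -0.21 log2 with all arrays and by -0.50 without both replicates 4, and STARD4, a cholesterol transfer protein, by -0.30 and -0.68.

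NPC1L1, the brush border protein that imports dietary cholesterol, differed by a like amount with and without replicates 4. It had log2 values of 7.45, 7.18, 7.16 and 7.48 in TiO2 arrays, against 8.03, 8.22, 8.04 and 7.80 in control arrays, with no overlap. The difference was -0.70 ± 0.17 log2 (SE, n = 4 each) with a limma adjusted p of 0.738, and -0.83 without both replicates 4 with 0.253. The list of fat absorption and lipoprotein genes to which it belongs had 7 of 18 above 0 and a median of -0.03 log2, with the same count and median without both replicates 4. APOB, the structural protein of chylomicrons, was at -0.14 with all arrays, -0.36 without both replicates 4 and 0.50 in the pair numbered 4. FABP1, a fatty acid carrier, was at -0.32, -0.27 and -0.48.

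Glycolytic and hypoxia-inducible genes followed the same split between replicates 1 to 3 and replicate 4. PGK1, a glycolytic kinase, had log2 values of 8.57, 8.33, 8.46 and 8.85 in TiO2 arrays, against 9.01, 8.98, 8.89 and 8.31 in control arrays. TiO2 replicate 4 was the highest of its group and control replicate 4 the lowest of all 8 arrays. The difference was -0.24 ± 0.15 log2 (SE, n = 4 each) with all arrays and -0.51 without both replicates 4, where the limma adjusted p was 0.253. PDK1, which restrains entry of pyruvate into mitochondria, differed by -0.41 log2 and by -0.73 without both replicates 4. Of 30 measured members, 19 lay below 0 with all arrays, 25 without both replicates 4, and 4 in the pair numbered 4, with medians of -0.06, -0.21 and 0.34 log2. The corresponding shares of all genes below 0 were 45.4%, 42.9% and 53.2%.

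The PGK1 promoter is shown for its hypoxia response elements. The window is 250 bases before to 50 after the start (RefSeq, GRCh38.p14, chrX:78103998-78104297, plus strand), and the capitals mark 3 matches of the core letters ACGTG on either strand.
PGK1: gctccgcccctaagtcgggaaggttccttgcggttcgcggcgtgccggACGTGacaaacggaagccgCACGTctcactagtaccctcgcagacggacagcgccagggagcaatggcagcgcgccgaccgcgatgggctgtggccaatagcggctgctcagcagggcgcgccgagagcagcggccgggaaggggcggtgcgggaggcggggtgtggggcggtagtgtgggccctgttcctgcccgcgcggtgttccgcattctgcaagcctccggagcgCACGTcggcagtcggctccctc
The core was in 21.6% of the 27305 promoters and in 14 of the 29 matched for the list, and it is also part of the E-box letters CACGTG. The windows of PDK1 and PFKFB4, also searched, held no match. Sterol response letters (TCACNCCAC) were in 1 of 19 promoters matched for the cholesterol list, against 1.15% of all, and in neither HSD17B7 nor STARD4. AP-1 letters (TGANTCA) were in 1 of 20 promoters matched for immediate early genes, against 7.76% of all.

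Immediate early genes, many of them transcription factors that respond first when a cell is stimulated, leaned upward. FOSL1, a subunit of AP-1, had log2 values of 7.78, 7.63, 7.81 and 7.57 in TiO2 arrays, against 6.61, 6.35, 6.51 and 8.04 in control arrays. Control replicate 4 was the highest of all 8 arrays, and the other control arrays lay below every TiO2 array. The difference was 0.82 ± 0.32 log2 (SE, n = 4 each) with a limma adjusted p of 0.799, and 1.25 without both replicates 4 with 0.203. NR4A2, an orphan nuclear receptor, was 5.57, 6.20, 5.97 and 5.28 in TiO2 arrays and 4.997, 5.12, 4.89 and 5.47 in control arrays, a difference of 0.64 ± 0.22 log2 (SE, n = 4 each), and its groups overlapped only through replicates 4. Without these it differed by 0.91 log2, with a limma adjusted p of 0.275. PHLDA1, a gene of growth factor signalling, differed by 0.36 ± 0.13 log2 (SE, n = 4 each), or 0.34 without both replicates 4, and its groups did not overlap. Of 26 measured members, 21 lay above 0, against 54.6% of all genes, and 3 (11.5%) were higher at an unadjusted p below 0.05, against 3.42%. Among 3 and 3 arrays, 20 lay above 0, against 57.1%, with a median of 0.21 log2, and 4 (15.4%) were higher, against 5.53%. In the pair numbered 4, 12 of 26 lay above 0 with a median of -0.06.

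Of 28 measured NF-kB and inflammatory genes, 17 lay above 0, against 54.6% of all genes, and 1 (3.57%) was higher at an unadjusted p below 0.05, against 3.42% of all genes, which is about the background. Among 3 and 3 arrays, 18 lay above 0 and 1 (3.57%) was higher, against 5.53%. That gene was IL6, with log2 values of 3.41, 3.46, 2.66 and 2.72 in TiO2 arrays, against 2.51, 2.39, 2.62 and 2.53 in control arrays. The IL6 groups did not overlap but lay around or below the array median, so its difference of 0.55 ± 0.20 log2 (SE, n = 4 each), or 0.67 without both replicates 4, rests on dim signal. CXCL8, the neutrophil chemokine, differed by -0.65 ± 0.39 log2 (SE, n = 4 each), or -0.92 without both replicates 4, at a level below that median. CXCL10, an interferon-inducible chemokine, was 3.86, 3.51, 3.47 and 5.79 in TiO2 arrays and 4.02, 4.29, 3.73 and 3.78 in control arrays. TiO2 replicate 4 alone set the sign of the CXCL10 difference, which was 0.20 log2 with all arrays and -0.40 without both replicates 4.

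Of 24 measured interferon-stimulated genes, 20 lay above 0, against 54.6% of all genes, with a median of 0.17 log2, and without both replicates 4, 17 did, against 57.1%, with a median of 0.13. Of the 24, 2 (8.33%) were higher at an unadjusted p below 0.05, against 3.42% of all genes, and 0 lower. The 3 and 3 arrays gave 2 (8.33%) higher, against 5.53%, and 1 (4.17%) lower, against 3.67%. The pair numbered 4 had 19 above 0, and the median was 0.38, against -0.03 over all genes. IFIT3, an antiviral protein, was 5.76, 5.64, 5.56 and 6.38 in TiO2 arrays, against 5.01, 4.88, 5.28 and 5.16 in control arrays, with no overlap and TiO2 replicate 4 the highest. IRF7, a transcription factor of the interferon response, had 5.57, 5.42, 5.58 and 5.18 in TiO2 arrays and 4.91, 5.08, 5.01 and 4.69 in control arrays, also with no overlap. The differences were 0.75 ± 0.27 and 0.51 ± 0.17 log2 (SE, n = 4 each), both with a limma adjusted p of 0.797, and 0.60 and 0.52 without both replicates 4. IFITM3 went the other way, at -0.96 ± 0.46 log2 (SE, n = 4 each), with 6.06, 4.66, 4.47 and 7.03 in TiO2 arrays and 6.59, 6.88, 6.03 and 6.54 in control arrays. It differed by -1.44 log2 without both replicates 4, with a limma adjusted p of 0.371, and in the pair numbered 4 by 0.49.

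**Figure D5:**
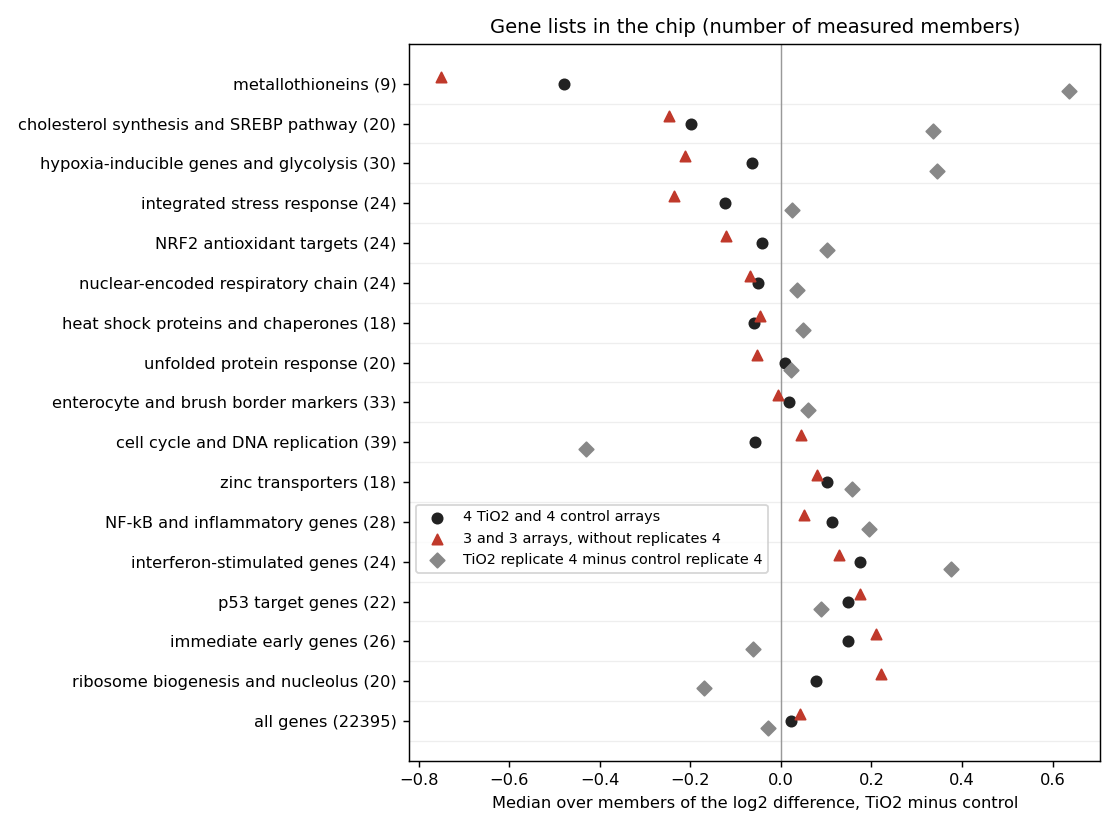
Median log2 difference, TiO2 minus control, over the measured members of 16 gene lists and over all genes, with all 8 arrays (black circles), without both replicates 4 (red triangles) and in the pair numbered 4 alone (grey diamonds). Metallothionein, cholesterol and hypoxia-inducible genes have medians of -0.48, -0.20 and -0.06 with all arrays, and of 0.64, 0.34 and 0.34 in the pair numbered 4.

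Of 33 measured enterocyte and brush border genes, which mark the differentiated state of Caco-2, 18 lay above 0 and 15 below, with a median of 0.02 log2. In the 3 and 3 arrays, 16 lay above and 17 below, with a median of -0.01. Of the 33, 1 (3.03%) was higher at an unadjusted p below 0.05 with all arrays, against 3.42% of all genes. The 3 and 3 arrays gave 2 (6.06%) higher, against 5.53%, and 2 (6.06%) lower, against 3.67%. SLC3A1, a subunit of the dibasic amino acid transporter, lay higher at 0.75 ± 0.32 log2 (SE, n = 4 each), with 6.37, 6.86, 6.67 and 5.43 in TiO2 arrays, against 5.37, 6.00, 5.60 and 5.37 in control arrays. Its partner SLC7A9 differed by -0.38 ± 0.36 log2 (SE, n = 4 each), and SLC15A1, the peptide transporter, by -0.43 ± 0.24. SLC3A1 was at 0.98 log2, SLC7A9 at -0.62 and SLC15A1 at -0.82 without both replicates 4 (limma adjusted p 0.401, 0.495 and 0.275), with the 3 and 3 arrays apart in each. The pair numbered 4 had SLC7A9 at 0.34 and SLC15A1 at 0.72, opposite in sign, and SLC3A1 at 0.06. The brush border motor and bundling genes MYO1A, VIL1 and ESPN differed by -0.11, -0.06 and -0.10 log2, and without both replicates 4 by 0.02, -0.01 and -0.09.

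Growth-related lists split between replicates as well. Of 39 measured cell cycle and DNA replication genes, 25 lay below 0 with all arrays (median -0.06 log2), 17 without both replicates 4 (median 0.04), and 36 in the pair numbered 4 (median -0.43). The shares of all genes below 0 were 45.4%, 42.9% and 53.2%. Of 20 genes of ribosome biogenesis, 16 lay above 0 with all arrays, 17 without both replicates 4 and 4 in the pair numbered 4, with medians of 0.08, 0.22 and -0.17 log2. The shares of all genes above 0 were 54.6%, 57.1% and 46.7%. RRP12, a ribosome assembly factor, was 7.92, 7.70, 7.86 and 7.97 in TiO2 arrays and 7.15, 7.26, 7.24 and 8.03 in control arrays, so only control replicate 4 kept its groups from separating. RRP12 differed by 0.44 log2, or 0.61 without both replicates 4. Of 22 measured p53 target genes, 17 lay above 0 with a median of 0.15 log2, and without both replicates 4, 16 did with a median of 0.17, against 54.6% and 57.1% of all genes. Of the 22, 1 (4.55%) was higher at an unadjusted p below 0.05, against 3.42%, and without both replicates 4, 3 (13.6%), against 5.53%. The 1 gene with all arrays was FAS, at 2.75 in TiO2 arrays and 2.21 in control arrays, both below the chip array median of 3.31. Whether p53 was active in these cells was not tested. CDKN1A, the cyclin-dependent kinase inhibitor, differed by 0.21 ± 0.15 log2 (SE, n = 4 each), and MDM2, which degrades p53, by -0.13 ± 0.13. CDKN1A was at 0.38 log2 and MDM2 at -0.26 without both replicates 4 (limma adjusted p 0.467 and 0.600), with the 3 and 3 arrays apart in each. The pair numbered 4 had CDKN1A at -0.30 and MDM2 at 0.27. With all arrays, the other lists had medians between -0.09 log2, for de novo purine and pyrimidine synthesis, and 0.14 log2, for Wnt targets and stem cell markers, with 0 genes that passed.

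Small nucleolar RNA genes were examined as classes after SNORD42A had been seen, so their counts are a description. Of 157 measured C/D box (SNORD) genes, 108 lay above 0, against 54.6% of all genes, and 30 (19.1%) were higher in TiO2 arrays at an unadjusted p below 0.05, against 3.42% of all genes, with 2 (1.27%) lower, against 2.3%. In the 3 and 3 arrays, 101 lay above 0, against 57.1% of all genes. There 31 (19.7%) were higher, against 5.53% of all genes, and 6 (3.82%) lower, against 3.67%. Of the 157, 76 were below the array median in both groups. Of 74 genes outside the repeated SNORD113 to SNORD116 clusters, 15 (20.3%) were higher, both with all arrays and without both replicates 4. With all arrays 53 of the 74 lay above 0 and 1 (1.35%) was lower, against 2.3% of all genes. Without both replicates 4, 43 lay above 0, against 57.1% of all genes, and 5 (6.76%) were lower, against 3.67%. Of the 74, 61 lay above 0 in the pair numbered 4 (median 0.37 log2), against 46.7% of all genes. Over all 157 SNORD genes, 99 lay above 0 in that pair, with a median of 0.14 log2. Examples at high signal were SNORD41, at 10.14 in TiO2 arrays and 9.52 in control arrays, SNORD69, at 10.58 in TiO2 arrays and 10.10 in control arrays, and SNORD105B, at 11.50 in TiO2 arrays and 11.15 in control arrays. In each of these 3 genes all TiO2 arrays lay above all control arrays, and the differences were 0.61, 0.48 and 0.35 log2 with all arrays and 0.70, 0.48 and 0.46 without both replicates 4. Such separation held in 7 of the 74 genes, against 2.01% of all genes, and 0 were separated downward, against 1.33%. Among 3 and 3 arrays, 13 of the 74 were separated upward and 7 downward, against 10.6% and 7.24% of all genes. Differences in the 74 ran from -1.29 to 1.13 log2, or from -1.81 to 1.28 without both replicates 4. SNORD123 differed by 0.96 ± 0.23 log2 and SNORD105 by 0.75 ± 0.17 log2 (SE, n = 4 each), or by 0.92 and 0.66 without both replicates 4. The H/ACA box (SNORA) class, which guides pseudouridylation, had 40 of 61 below 0, a median of -0.06 log2, and 0 of 61 higher and 2 (3.28%) lower at an unadjusted p below 0.05, against 2.3% of all genes lower. Among the 3 and 3 arrays, 44 lay below 0, against 42.9% of all genes, with a median of -0.22. There 13 (21.3%) were lower, against 3.67% of all genes, and 1 (1.64%) was higher, against 5.53%. The pair numbered 4 turned the other way, with 46 of 61 above 0 and a median of 0.38. These RNAs are short, and some have near-identical copies that the probes may not tell apart.

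The same nanomaterial on static Transwell inserts was measured in 3 TiO2 arrays, at 50 µg/mL in suspension, and 4 control arrays. The submitters modelled these suspensions to give equal deposited doses. On Transwell, 0 genes (0%) passed and 591 (2.64%) had an unadjusted p below 0.05. Across the 11198 brighter genes the chip and Transwell differences, which have separate control arrays, correlated at -0.10 with all arrays and at -0.13 without both replicates 4. Genes are not independent replicates, and the value is a description. In the test of the chip response minus the Transwell response, 0 genes (0%) passed and 1215 (5.43%) had an unadjusted p below 0.05. SNORD42A differed by -0.06 log2 on Transwell, a response difference of 1.20 ± 0.28 (limma adjusted p 0.747), or 1.34 without both chip replicates 4 (0.128). ASNS differed by 0.23 log2 on Transwell and NPC1L1 by 0.10, with response differences of -0.83 ± 0.23 and -0.80 ± 0.23 (limma adjusted p 0.762 for each). Without both chip replicates 4, 1 gene (0.00447%) passed this test: HSD17B7, with a response difference of -1.85 log2 and a limma adjusted p of 0.0215. That call rests on leaving out those arrays, since with them the HSD17B7 response difference was -1.16 ± 0.43 log2 with a limma adjusted p of 0.847.

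Set against ZnO in the chip, given at 80 µg/mL with its own control arrays, the metallothioneins lay on opposite sides of 0. ZnO gave 1 gene (0.00447%) past the test and 1459 (6.51%) at an unadjusted p below 0.05. The gene that passed was MT1B, which rose by 5.17 ± 0.67 log2 after ZnO (limma adjusted p 0.0144). MT1B differed by -0.78 ± 0.67 log2 after TiO2. All 9 metallothioneins lay above 0 after ZnO with a median of 1.95 log2, against -0.48 after TiO2. The TiO2 value rests in part on control replicate 2, whose list median lay 1.35 log2 above the control mean. In the test of the TiO2 response minus the ZnO response, 0 genes (0%) passed and 841 (3.76%) had an unadjusted p below 0.05. The MT1B response difference was -5.95 ± 0.95 log2 with a limma adjusted p of 0.200, or 0.248 without both replicates 4, where 0 genes (0%) passed. MT1G differed between the responses by -3.17 ± 0.74 log2, with a limma adjusted p of 0.812.

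Other lists are given side by side. Immediate early genes were above 0 in 21 of 26 after TiO2 and in 25 of 26 after ZnO, with medians of 0.15 and 0.41 log2. FOSL1 differed by 0.82 log2 after TiO2 and by 1.11 after ZnO. The integrated stress response list was above 0 in 8 of 24 after TiO2 and in 24 of 24 after ZnO, with medians of -0.12 and 0.21 log2. ASNS was at -0.60 after TiO2 and 0.19 after ZnO, a response difference of -0.79 ± 0.22 log2 with a limma adjusted p of 0.950. Across the 11198 brighter genes the TiO2 and ZnO differences correlated at 0.30 with all arrays and 0.25 without both replicates 4. The doses of the nanomaterials differ, and no difference between the responses passed the test.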

How the data were processed

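RNA from 100 ng samples was measured on Affymetrix whole-transcript arrays. The deposited values are on a log2 scale, made with RMA per the submitters' processing notes (no RMA release was given in the sources used here). The table held 53617 probe sets on 31 arrays. In the platform's annotation table, 23871 probe sets had 1 gene, 1842 several and 27904 none, and only the first were used. Symbols were updated by gene ID for 22569 probe sets. For 632 genes with several probe sets the brightest was kept, which left 22395 genes. No 2 arrays were identical. Array medians ran from 3.26 to 3.33 in the 8 TiO2 and control chip arrays, and their number limits the precision.

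The tests used lmFit and eBayes of limma 3.58.1 under R 4.3.3 on the 16 chip arrays, and on all 31 arrays for the response against Transwell, with Benjamini-Hochberg adjustment over all genes and a threshold of 0.05. The scripts were tested on simulated data. Genes named were the 5 with the smallest p, since none passed, and up to 4 per described list with the smallest p without both replicates 4; a few named for context or after their values were seen are stated with their values. Members and lists were chosen with earlier results of these data known. Replicate numbers were not used as a block, because the labels do not say what a number shares. Deviations of same-numbered arrays from their group means correlated at -0.02, 0.12, -0.02 and 0.12, which gave no clear pairing. These values cannot settle the question, because the group means include replicates 4, which lay together on the first principal component. Alternatives were another spread model, filters, other probe set rules, array weights, each replicate left out and the replicate block.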

Additional observations from a re-analysis of the deposited data

Results flagged for a closer look

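For 72 named genes in 2 groups, 144 sets of 4 arrays were checked for an array far from the other 3, judged by Dixon's 95% critical value for 4 values, and 12 were found. All 12 were replicates 4, 5 in the TiO2 group and 7 in the control group. Chance gives about 1 in 20, but most of these genes were named for the smallest p without both replicates 4. That choice favours genes whose replicates 1 to 3 lie close together, so the count and its concentration in replicates 4 cannot be read against chance. In TiO2 replicate 4, ACAT2 was 8.01 log2 (others up to 7.61), CXCL10 5.79 (others up to 3.86), HSD17B7 6.96 (others up to 5.93), ME1 10.93 (others up to 10.46) and MT1X 11.20 (others up to 10.74). In control replicate 4, FOSL1 was 8.04 (others up to 6.61), POLR1B 6.08 (others up to 5.34) and RRP12 8.04 (others up to 7.26). Control replicate 4 was low for ACAT2 at 7.51 (others from 8.17), HSPA4L at 8.63 (others from 8.98), MIR4487 at 1.22 (others from 1.75) and SQLE at 9.34 (others from 9.96). The cause was not tested.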

How the results depend on the processing

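With all 8 arrays, 0 genes passed between TiO2 and control. The count was 1 with an intensity trend in limma, with array weights and over the 11198 brighter genes, each time SNORD42A (limma adjusted p 0.0139, 0.0332 and 0.0487). Leaving out single arrays gave 0 to 1 genes, the 1 being SNORD42A without control replicate 4 (1.28 log2, limma adjusted p 0.0177). Each pair of replicates left out, a robust prior, renewed quantile normalization, the mean of probe sets, every probe set, all 31 arrays and the 8 arrays alone gave 0. With the replicate block, which the check of same-numbered arrays does not support as a pairing (correlations -0.02, 0.12, -0.02 and 0.12), 1 gene passed, MIR4487 (1.38 log2, limma adjusted p 0.0337), and with the block in the 8 arrays alone, an alternative chosen after seeing the data, 0 passed. Under the block the response of TiO2 minus ZnO gave 2 genes, MIR4487 (1.92 log2) and MT1B (-5.95), and that of chip minus Transwell gave 0. Without both replicates 4, the response of chip minus Transwell gave 1 gene, HSD17B7 (-1.85 log2, limma adjusted p 0.0215). Over 72 named genes and 1572 gene settings, 6 reversed in sign. CXCL10 was at -0.40 without both replicates 4, at -0.34 without TiO2 replicate 4 and at -0.0393 with array weights; leaving out single arrays gave -0.34 to 0.43. APOB ran from -0.28 to 0.0518 over single arrays left out, the last without TiO2 replicate 1. ERO1A was at 0.0543 without both replicates 2 and at 0.0119 without both replicates 3. The causes were not tested. Dim probe sets near the array median of 3.31 limit what can be seen of weakly expressed genes.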

Other observations

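Bitter taste receptor genes (TAS2R), which sense bitter compounds in taste and gut cells, were looked at as a class after the values were seen. Of 23 measured TAS2R genes, 0 passed and 15 lay below 0, with a median of -0.22 log2. At an unadjusted p below 0.05, 3 (13.0%) were lower in TiO2 arrays, against 2.3% of all genes. Without both replicates 4 the median was -0.36 log2 and 8 (34.8%) were lower, against 3.67% of all genes, and in the pair numbered 4 the median was 0.31. Of the 23, 15 were below the array median in both groups. Among 1046 measured microRNA genes, 34 (3.25%) were higher and 49 (4.69%) lower in TiO2 arrays at an unadjusted p below 0.05, against 3.42% and 2.3% of all genes. Without both replicates 4, 49 (4.69%) were higher and 79 (7.55%) lower, against 5.53% and 3.67%. Of the 1046, 693 were below the array median in both groups.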
